A study of Mus musculus with 8 samples.

Results

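Hes1 and 8 genes of the Notch signalling machinery (Notch1, Notch2, Rbpj, Maml1, Adam10, Ncstn, Nrarp and Dtx4) were examined in cultured bone marrow cells of wild-type mice. The 9 genes were picked by symbol from the 24346 gene symbols with a deposited value, by their roles in the pathway and with their values in these libraries already known, so their levels and differences are given as a description, without p-values. Total RNA was sequenced from 8 libraries in 4 groups of 2. HSCs (Lin- Sca-1+ c-Kit+ CD48- CD150+) and LSK cells (Lin- Sca-1+ c-Kit+, a wider gate that holds the HSCs and their early progeny) came from WT C57BL/6 bone marrow, and each was cultured for 1 day alone or with RBCs, the red blood cells of peripheral blood depleted of leukocytes and irradiated with 20 Gy. All 4 groups shared the serum-free medium with added cytokines, and the mice were 8 to 20 weeks old. After culture the suspensions were hemolysed and about 3000 CD45+ cells were sorted per library, so the libraries hold the progeny formed within the culture as well as the cells first plated. Nothing in the labels says that the 2 libraries of a group came from separate animals or cultures, so the spread between them may be technical, and the p-values given for other genes measure only that spread.

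In Notch signalling, a ligand of the Delta or Jagged family on a neighbouring cell binds a Notch receptor, which the protease ADAM10 and then the γ-secretase complex cleave, and the freed intracellular domain enters the nucleus. There it joins the DNA-binding protein RBPJ and a coactivator of the Mastermind family and switches on target genes. Hes1, which encodes a repressor of the basic helix-loop-helix family, is the best known of these targets, and the pathway is known in blood formation above all for directing early progenitors into the T cell lineage.

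Values are FPKM, numbers of fragments normalised to transcript length and to the size of the library, so that genes can be compared. The steps of low values give each library's depth relative to the first LSK control, 0.886 to 1.13, and the absolute depth is unknown. Kit and Ly6a (Sca-1) were well above 0 in all libraries. Flt3 was at 15.4 to 22.5 FPKM in HSCs and 89.1 to 101 in LSK cells, and Cd48 at 16 to 42.7 and 124 to 184, in keeping with the sort labels, while Slamf1 (CD150) was highest in HSCs without RBCs, at 10.2 and 10.7. Markers of the sorted cells themselves were not level between the culture conditions. Kit was lower with RBCs in HSCs (126 and 118, then 97.6 and 90.8) and in LSK cells (135 and 137, then 110 and 113). Ly6a was higher with RBCs in HSCs (388 and 444, then 719 and 544) and lower in LSK cells (381 and 226, then 204 and 170). In HSCs with RBCs, Slamf1 (5.5 and 6.59), Procr and Cd48 were lower and Cd34 was higher. Markers of several other blood cells differed with the coculture, in both directions. The summed FPKM of the 6 measured red blood cell markers (of 8 listed) went from a range of 1.549 to 1.896 to one of 90.91 to 123.1 in HSCs and from 1.147 to 1.956 to 36.87 to 45.14 in LSK cells, nearly all of it Hba-a1, with 3 markers under 1 FPKM in every library. The 9 measured neutrophil markers (of 10) went from 8.542 to 10.56 to 46.25 to 251.7 in HSCs and from 128.2 to 218.7 to 362.2 to 565.2 in LSK cells. With RBCs most of this was S100a8 and S100a9, which were uneven between the 2 HSC libraries (148 and 22.3, and 87.9 and 11.8). Camp and Mmp8 overlapped in HSCs, and Ngp and Ltf in LSK cells. The 8 markers of monocytes and macrophages went from 65.61 to 77.81 to 149.2 to 150.4 in LSK cells, with C1qa at 0 throughout, while their sums overlapped in HSCs (89.59 to 111.1 and 105.4 to 111). That HSC sum was mostly Cd68 (85.9 to 107 FPKM). In HSCs with RBCs, Csf1r was higher (2.53 and 2.81, then 7.07 and 9.37), as was Ccr2 (0.84 and 0.976, then 1.87 and 2.09). Fcgr1 was lower there, and under 1 FPKM throughout. The sum of the 6 platelet markers was lower with RBCs in LSK cells (105.3 to 201 and then 81.43 to 93.03). This was mainly Pf4 (130 and 37.8, then 13.5 and 19.1). Ppbp was also lower there, Gp1ba was higher (4.05 and 3.23, then 5.63 and 6.59), and Itga2b, Gp9 and Gp1bb overlapped. In HSCs the platelet sums overlapped (190.3 to 227.7 and 188.2 to 203), but single genes differed in both directions. Pf4 (148 and 115, then 106 and 101) and Gp9 were lower there with RBCs. Gp1ba (2.44 and 2.78, then 8.37 and 5.85), Itga2b and Gp1bb were higher, and Ppbp overlapped. The 5 B cell markers were higher in LSK cells with RBCs (38.6 to 41.1 and then 49.52 to 51.64), most of it Cd79b, and overlapped in HSCs (35.6 to 40.26 and 34.72 to 35.84), and T cell markers are given with Tcf7. The part of these cells in the results below was not tested. In bulk RNA, fewer cells of a type and less RNA per cell cannot be told apart.

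The coculture with RBCs went with a higher Hes1 level in both populations, and no other of the 9 genes differed by as much between the culture conditions. Hes1 (chromosome 16 of GRCm38 from 30064384 to 30067796, plus strand, overlapping no other annotated gene) was at 1.8 and 2.46 FPKM in HSCs alone and at 21.3 and 16.4 FPKM in HSCs with RBCs. LSK cells had 3.56 and 2.26 FPKM alone and 13 and 12 FPKM with RBCs. The 4 cocultured libraries all lay above the 4 libraries of cells cultured alone, and the 2 conditions did not overlap in either population. The ratio of the group means was 8.84 in HSCs and 4.29 in LSK cells. As whole multiples of the smallest step, the Hes1 values stand for at least 33 and 37 reads in HSCs alone against 346 and 303 with RBCs, and for 58 and 41 against 188 and 183 in LSK cells, so that the difference does not rest on a handful of reads. On the log2(FPKM + 1) scale, which understates the change of low genes, the difference was 2.66 (SE 0.198) in HSCs and 1.81 (SE 0.198) in LSK cells, where the SE comes from limma's fit of the 4 groups. The effect in HSCs exceeded that in LSK cells by 0.85 (SE 0.281) on this scale. Without RBCs the libraries of the 2 populations overlapped, and with RBCs both HSC libraries lay above both LSK libraries, by a log2 difference between LSK cells and HSCs of -0.55.

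**Figure D1:**
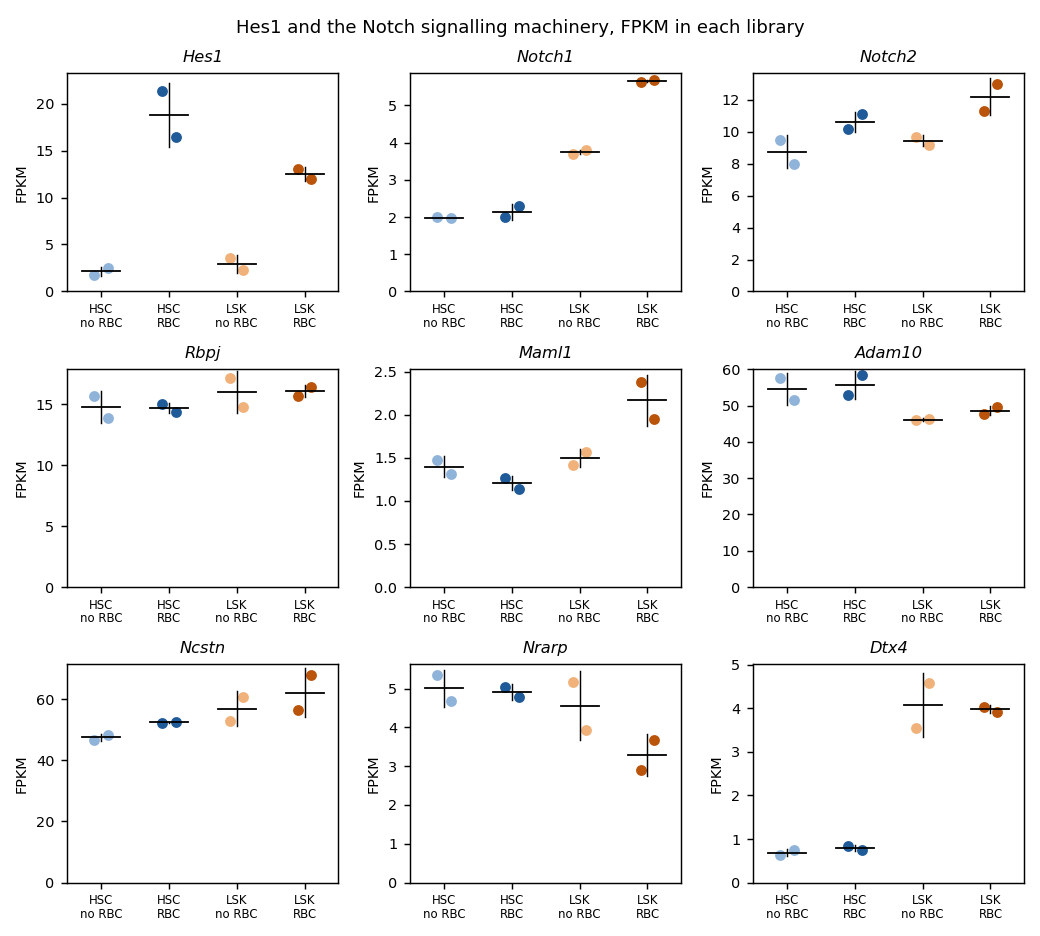
FPKM of Hes1 and the 8 other genes (vertical axes, each starting at 0) in the 4 groups, HSCs and LSK cells with and without RBCs. Points are single libraries, horizontal lines the means of 2 libraries and vertical lines 1 SD. Hes1 stands at 12 to 21.3 FPKM with RBCs and at 1.8 to 3.56 without. Notch1 and Dtx4 separate the cell types, as do Adam10 and Ncstn by smaller margins.

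The position of Hes1 among the 9 genes changed with the coculture. In HSCs alone the order of mean FPKM was Adam10 (54.5), Ncstn (47.6), Rbpj (14.8), Notch2 (8.74), Nrarp (5.01), Hes1 (2.13), Notch1 (1.98), Maml1 (1.4) and Dtx4 (0.687), and only the neighbours Hes1 and Notch1 overlapped. With RBCs, Hes1 was in place 3 in HSCs, at a mean of 18.8 FPKM above Rbpj at 14.7, and the order of the 8 other genes was the same as before. In LSK cells, Hes1 moved from place 8 (mean 2.91 FPKM) to place 4 (mean 12.5 FPKM), where it overlapped Notch2 at 12.2. The neighbours Nrarp, Dtx4 and Notch1 overlapped in LSK cells alone.

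Of the 12003 genes tested, those whose log2 values most resembled those of Hes1 over the 8 libraries included Chad (Pearson r 0.994), Skil (0.986), Hba-a1 (0.985) and Src (0.981). Skil, which encodes the SMAD corepressor SnoN, was at 6.24, 6.9, 7.95 and 7.64 FPKM in cells alone and at 20.2, 17.6, 13.7 and 12.8 FPKM in cells with RBCs (HSCs first). Hba-a1, an α-globin gene and a marker of red blood cells, was at 0.0826 to 1.53 FPKM without RBCs, at 116 and 88.7 FPKM in HSCs with RBCs and at 32.9 and 43.1 FPKM in LSK cells with RBCs. The most opposite patterns were those of Pkn3 (-0.987), Lmo2 (-0.975), Uap1l1 (-0.972), Cpne2 (-0.970) and Cxcl10 (-0.970). Lmo2, a transcriptional cofactor required for blood formation, was at 428 to 471 FPKM in cells alone and 271 to 336 FPKM with RBCs. The r of the 8 other genes with Hes1 ran from -0.29 (Nrarp) to 0.72 (Notch2). These correlations share the same 8 libraries and 4 group means and are a description.

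Among the 5 ligands, only Jag2 reached the level needed for a test (an FPKM of 1 or more in at least a pair of libraries). Jag2 was at 8.72 and 5.64 FPKM in HSCs alone and at 4.71 and 5.26 FPKM with RBCs. In LSK cells it was at 4.19 and 5.01 FPKM alone and 5.58 and 5.66 FPKM with RBCs. The log2 difference with RBCs was -0.43 (SE 0.188, limma adjusted p = 0.36) in HSCs and 0.25 (SE 0.188, adjusted p = 0.54) in LSK cells, and neither passed the test. Jag1 was at most 1.34 FPKM, with 105 and 42 reads in HSCs alone and 41 and 46 with RBCs, so that the conditions overlapped. Summed, this was a ratio per depth of 0.568 (95% interval 0.431 to 0.746, exact binomial), which became 0.896 without the first HSC library cultured alone, and a fit of all genes above 0 gave an adjusted p of 0.61. In LSK cells Jag1 had 46 reads alone and 36 with RBCs. The Delta-like genes were close to 0, with Dll1 at 0 to 0.252 FPKM, Dll3 at 0 to 0.211 FPKM and Dll4 at 0 to 0.235 FPKM. Reads here are not independent molecules, so such intervals cover counting error only and compare these libraries, not the conditions.

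Notch2 was the more abundant receptor in every library, and Notch1 differed between the populations. Notch1 (chromosome 2 from 26457903 to 26516663, minus strand, sharing its locus with 0610009E02Rik and Gm13568 on the other strand and with Mir6996 on its own) was at 1.99 and 1.98 FPKM in HSCs alone and at 1.99 and 2.29 FPKM with RBCs, so the HSC conditions lay apart by less than the rounding. LSK cells had 3.7 and 3.79 FPKM alone and 5.63 and 5.67 FPKM with RBCs, with no overlap among the conditions and with both above every HSC library. The ratio of means with and without RBCs was 1.08 in HSCs and 1.51 in LSK cells, and the log2 differences were 0.07 and 0.49 (SE 0.143). Between LSK cells and HSCs, the log2 difference of Notch1 was 0.67 without and 1.08 with RBCs. Reads recovered for Notch1 numbered at least 223 to 316 in the HSC libraries and 452 to 650 in the LSK libraries. The libraries were made without keeping the strand, so reads of the overlapping genes cannot be told apart from those of Notch1.

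Notch2 (chromosome 3 from 98013527 to 98150361, plus strand, overlapping Gm42819 and Gm42820) was at 9.47 and 8 FPKM in HSCs alone and 10.2 and 11.1 FPKM with RBCs. In LSK cells it was at 9.69 and 9.2 FPKM alone and at 11.3 and 13 FPKM with RBCs. Both cocultured libraries lay above both others in each population, by log2 differences of 0.26 in HSCs and 0.33 in LSK cells (SE 0.127 each), while the populations overlapped without RBCs. The FPKM of Notch2 was 4.77 and 4.04 times that of Notch1 in HSCs alone and 5.13 and 4.84 times with RBCs, against 2.62 and 2.43 times in LSK cells alone and 2.01 and 2.29 times with RBCs. Notch3 and Notch4 were below the level for a test, at most 0.507 and 0.582 FPKM. Notch4 had 15 and 9 reads in HSCs alone and 25 and 28 with RBCs (ratio per depth 2.12, 95% interval 1.29 to 3.59). In LSK cells it had 17 and 15 reads alone and 12 and 46 with RBCs, so the conditions overlapped, and the ratio of 2.1 became 0.895 without the second LSK library with RBCs and 3.23 without the first. In a fit of all genes above 0 the adjusted p of Notch4 was 0.68 in HSCs and 0.6 in LSK cells.

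Sugars added by POFUT1, POGLUT1 and EOGT and extended by the Fringe enzymes shape how a receptor answers its ligands. Of the 6 genes, Eogt rose with RBCs in HSCs, 0 fell, and 0 passed in LSK cells (1 at an unadjusted p under 0.05). Over all genes tested, 13.7% in HSCs and 18.6% in LSK cells were at an unadjusted p under 0.05 with RBCs, against which this and the later counts of that kind are to be read. Eogt, whose product adds N-acetylglucosamine to the extracellular repeats of Notch, was at 4.56 and 4.21 FPKM in HSCs alone and 7.97 and 7.43 FPKM with RBCs. The log2 difference was 0.69 (SE 0.133, limma adjusted p = 0.029). This call did not hold when any 1 of 6 libraries was left out (each HSC library and each LSK library with RBCs), with adjusted p-values of up to 0.21, nor in 3 other settings. LSK cells had 3.35 and 3.47 FPKM alone and 4.33 and 4.57 FPKM with RBCs. With RBCs, Pofut1, Eogt and Lfng were all lower in LSK cells than in HSCs, by log2 differences of -0.66 (SE 0.172, adjusted p = 0.022), -0.67 (SE 0.133, adjusted p = 0.0067) and -0.77 (SE 0.195, adjusted p = 0.02). Leaving out 1 HSC or LSK library with RBCs raised the adjusted p of Pofut1 to as much as 0.15, that of Lfng to 0.11 and that of Eogt to 0.055. Mfng was the most abundant Fringe gene, at 69.7 to 89.1 FPKM.

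Adam10 and Ncstn, the most abundant of the 9 genes, hardly differed with the coculture. Adam10 (chromosome 9 from 70678997 to 70780229, plus strand), the metalloprotease that sheds the receptor's outer part after ligand binding, was at 57.6 and 51.4 FPKM in HSCs alone, 52.8 and 58.3 FPKM with RBCs, 45.9 and 46.4 FPKM in LSK cells alone and 47.8 and 49.5 FPKM with RBCs. All HSC libraries lay above all LSK libraries. The log2 differences with RBCs were 0.03 in HSCs and 0.07 in LSK cells (SE 0.0835), and those between LSK cells and HSCs were -0.23 and -0.19. Ncstn (chromosome 1 from 172066013 to 172082795, minus strand, overlapping Copa on the other strand), which encodes nicastrin, a subunit of γ-secretase, was at 46.8 and 48.4 FPKM in HSCs alone and 52.4 and 52.6 FPKM with RBCs. In LSK cells Ncstn was at 52.8 and 60.9 FPKM alone and 56.5 and 67.9 FPKM with RBCs, where the conditions overlapped. Its log2 differences with RBCs were 0.14 and 0.12 (SE 0.102). Among the other γ-secretase genes Psenen was highest, at 173 to 200 FPKM.

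Adam17, which encodes a metalloprotease related to ADAM10 that can also cleave Notch and many other surface proteins, was the gene of the 8 others in this list that passed. It was at 18.8 and 15 FPKM in HSCs alone and 20.8 and 25 FPKM with RBCs. LSK cells had 37.1 and 43.2 FPKM alone and 66.6 and 70.7 FPKM with RBCs. Adam17 rose in LSK cells with RBCs by 0.76 on the log2 scale (SE 0.13, limma adjusted p = 0.016), and its log2 difference in HSCs was 0.42. The LSK call was lost in 5 of 15 alternatives, among them those without the first LSK library without RBCs or without either LSK library with RBCs, with adjusted p-values of up to 0.13. Adam17 was also higher in LSK cells than in HSCs, by 1.21 without RBCs (adjusted p = 0.00049) and 1.55 with RBCs (adjusted p = 9.1e-05). The FPKM of Adam17 was 0.292 to 0.429 times that of Adam10 in HSCs, and 1.39 and 1.43 times in LSK cells with RBCs. Adam17 overlaps Iah1 and Gm22766 on the other strand.

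Dtx4 differed far more between the cell types than between the culture conditions. Dtx4 (chromosome 19 from 12466338 to 12501454, minus strand), a ubiquitin ligase of the Deltex family that acts on Notch, was at 0.632 and 0.741 FPKM in HSCs alone and 0.848 and 0.749 FPKM with RBCs. LSK cells had 3.55 and 4.59 FPKM alone and 4.04 and 3.92 FPKM with RBCs. Every LSK library lay above every HSC library, with a ratio of means of 5.93 without and 4.99 with RBCs, and at least 260 reads stood behind each LSK value against 50 to 62 in HSCs. The log2 difference between LSK cells and HSCs was 1.58 without and 1.47 with RBCs, whereas those with RBCs were 0.09 in HSCs and -0.02 in LSK cells (SE 0.169). With a pseudocount of 0.1 the first pair of values became 2.40 and 2.19. Dtx3 was the one other gene of the list past the test, higher in LSK cells than in HSCs with RBCs by 0.64 (SE 0.168, adjusted p = 0.024), at 38.6 and 43.6 FPKM against 26.4 and 25.7. That call was lost without any 1 of the 4 libraries with RBCs, with adjusted p-values of up to 0.14. Of the 13 genes other than Dtx4, 10 were tested and 0 passed with RBCs in either population (limma; 0 in HSCs and 1 in LSK cells at an unadjusted p under 0.05, where 13.7% and 18.6% of all genes were).

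**Figure D2:**
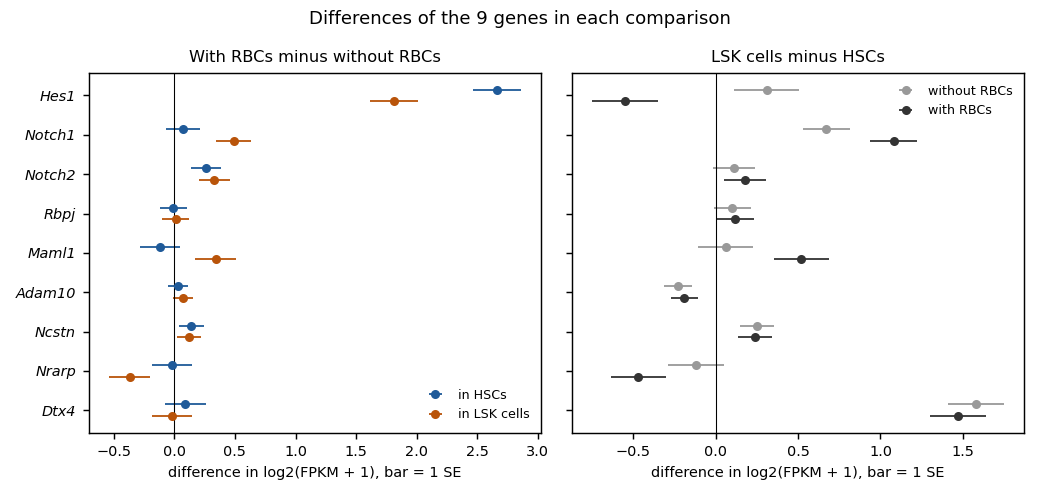
Differences in log2(FPKM + 1) of the 9 genes (horizontal axes; points, with bars of 1 SE), for RBCs minus no RBCs on the left and LSK cells minus HSCs on the right. Hes1 stands apart on the left at 2.66 in HSCs and 1.81 in LSK cells, and Dtx4 on the right at 1.58 and 1.47.

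Rbpj, through which all Notch receptors act on DNA, was nearly level across the 8 libraries. Rbpj (chromosome 5 from 53466152 to 53657362, plus strand, overlapping Gm10441 and Gm40304 on the other strand) was at 15.7 and 13.9 FPKM in HSCs alone, 15 and 14.4 FPKM with RBCs, 17.2 and 14.8 FPKM in LSK cells alone and 15.7 and 16.4 FPKM with RBCs. Its log2 differences with RBCs were -0.01 in HSCs and 0.01 in LSK cells (SE 0.112), and the groups overlapped in both. Maml1, a Mastermind coactivator (chromosome 11 from 50255634 to 50292311, minus strand, overlapping Gm26542 on the other strand), was at 1.48 and 1.31 FPKM in HSCs alone and 1.27 and 1.14 FPKM with RBCs, by a log2 difference of -0.12. In LSK cells Maml1 was at 1.42 and 1.57 FPKM alone and 2.38 and 1.95 FPKM with RBCs, a difference of 0.34 (SE 0.167). The HSC conditions and the LSK conditions each did not overlap, in opposite directions, on 85 to 148 reads per library.

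Maml3, another Mastermind gene, did not pass the test with RBCs in either population (log2 difference 0.45 in HSCs), but differed between the populations. It was at 2.29 and 1.78 FPKM in HSCs alone, 3.29 and 2.99 FPKM with RBCs, 6.72 and 7.1 FPKM in LSK cells alone and 8.58 and 7.83 FPKM with RBCs. Maml3 was higher in LSK cells by 1.39 without RBCs (SE 0.148, adjusted p = 0.00047) and by 1.15 with RBCs (adjusted p = 0.00088). Its FPKM was 1.36 to 2.62 times that of Maml1 in HSCs and 3.61 to 4.72 times in LSK cells.

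Without Notch, RBPJ recruits corepressors to the same genes. Of the 13 genes tested, 0 passed with RBCs in either population (limma; 0 in HSCs and 2 in LSK cells at an unadjusted p under 0.05, where 13.7% and 18.6% of all genes were). LSK cells differed from HSCs in the Groucho-related genes Tle2 and Tle3, in opposite directions. Tle3 was at 1.51 to 1.87 FPKM in HSCs, 2.96 and 3.07 FPKM in LSK cells alone and 4.25 and 5.16 FPKM with RBCs, higher in LSK cells by 0.67 (adjusted p = 0.023) without and 1.06 (SE 0.159, adjusted p = 0.0018) with RBCs. Tle2 was at 7.71 to 9.31 FPKM in HSCs and 4.8 to 6.05 FPKM in LSK cells, with log2 differences of -0.66 (adjusted p = 0.012) and -0.49 (adjusted p = 0.028). Hdac1 was lower in LSK cells, by values of -0.25 and -0.31 (adjusted p = 0.026 and 0.0072), and Cir1 higher with RBCs by 0.42 (adjusted p = 0.034). Of these calls only that of Tle3 with RBCs held under all 15 alternatives, the others being lost without at least 1 library of the groups compared, with adjusted p-values of up to 0.2.

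Nrarp and Hes5 did not share the pattern of Hes1. Nrarp, whose product is a feedback inhibitor that binds the Notch complex (chromosome 2 from 25180758 to 25183339, plus strand, overlapping Gm38287 on the other strand), was at 5.35 and 4.67 FPKM in HSCs alone and 5.05 and 4.78 FPKM with RBCs. In LSK cells it was at 5.18 and 3.93 FPKM alone and 2.91 and 3.67 FPKM with RBCs, where both cocultured libraries lay below both others, on 80 and 107 reads against 161 and 136. The log2 differences of Nrarp were -0.02 in HSCs and -0.37 in LSK cells (SE 0.168), against 2.66 and 1.81 for Hes1. Hes5, the other classical Notch target of the Hes family, was at 2.74 and 2.49 FPKM in HSCs alone and 2.44 and 2.6 FPKM with RBCs, and at 2.3 and 2.06 FPKM in LSK cells alone and 1.94 and 1.38 FPKM with RBCs. Its log2 differences of -0.04 in HSCs (adjusted p = 0.96) and -0.26 in LSK cells (adjusted p = 0.45) did not pass the test.

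Hey1, a related repressor and Notch target, was below the level for a test but had more reads with RBCs. It had 0 reads in HSCs alone and 5 with RBCs, and 3 reads in LSK cells alone and 23 with RBCs, a ratio per depth of 8.88 (95% interval 2.68 to 46.2, and 7.01 to 12.6 without any 1 library). Its FPKM was 0.0382 and 0.0686 in LSK cells alone and 0.56 and 0.406 with RBCs, so the level stayed far under that of Hes1. When all genes above 0 were fitted, the log2 difference of Hey1 in LSK cells was 0.49 with a limma adjusted p of 0.047. Hey1 was named after its values were seen, and this p rests on few reads in a single setting. It was not tried with a library left out, so nothing is concluded from it. Hey2 was listed at 0 in all libraries and Heyl had at most 3 reads.

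Of the 10 direct targets other than Hes1 and Nrarp, 6 were tested, and with RBCs 0 rose and Myc fell in LSK cells. Myc, the growth-promoting transcription factor, was at 269 and 281 FPKM in LSK cells alone and 214 and 219 FPKM with RBCs, a log2 difference of -0.34 (SE 0.0687, limma adjusted p = 0.03). This call was lost in 8 of 15 alternatives, including the omission of any 1 of the 4 LSK libraries, with adjusted p-values of up to 0.17. In HSCs Myc was at 235 and 223 FPKM alone and 232 and 209 FPKM with RBCs. Without RBCs it was higher in LSK cells than in HSCs by 0.26 (adjusted p = 0.034), a call lost in 10 of 15 alternatives. Tcf7, which encodes the T cell factor TCF1, was at 0.166 to 0.676 FPKM in HSCs, 4.88 and 5.16 FPKM in LSK cells alone and 6.31 and 7.15 FPKM with RBCs, higher in LSK cells by 2.16 (SE 0.205, adjusted p = 0.00024) without and 2.47 (adjusted p = 9.1e-05) with RBCs. Between the populations cultured with RBCs, Ptcra, the pre-T cell receptor chain, was higher in LSK cells than in HSCs by 0.78 (adjusted p = 0.033). Its level was low, at 2.41 and 2.95 FPKM against 0.782 and 1.57, on 11 to 39 reads per library. In the same comparison Ccnd1, the cell cycle protein cyclin D1, was lower in LSK cells by a value of -1.21 (SE 0.236, adjusted p = 0.0065). Both of the last calls were lost without the first HSC library or the second LSK library with RBCs, that of Ptcra also without the first LSK library with RBCs, and the adjusted p reached 0.21 for Ptcra and 0.054 for Ccnd1. Among the 7 T cell markers, Cd3e was at most 0.0702 FPKM and Cd3g at most 0.338 FPKM, while Cd5 was at 0.0888 to 0.362 FPKM in HSCs and 0.86 to 1.7 FPKM in LSK cells. The list's sum, most of it Lat, was 15.29 to 16.09 FPKM in HSCs alone and 22.24 to 24.14 FPKM with RBCs, and 22.16 to 22.79 FPKM in LSK cells alone and 15.06 to 15.6 FPKM with RBCs. The part of T cells in these differences was not tested.

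**Figure D3:**
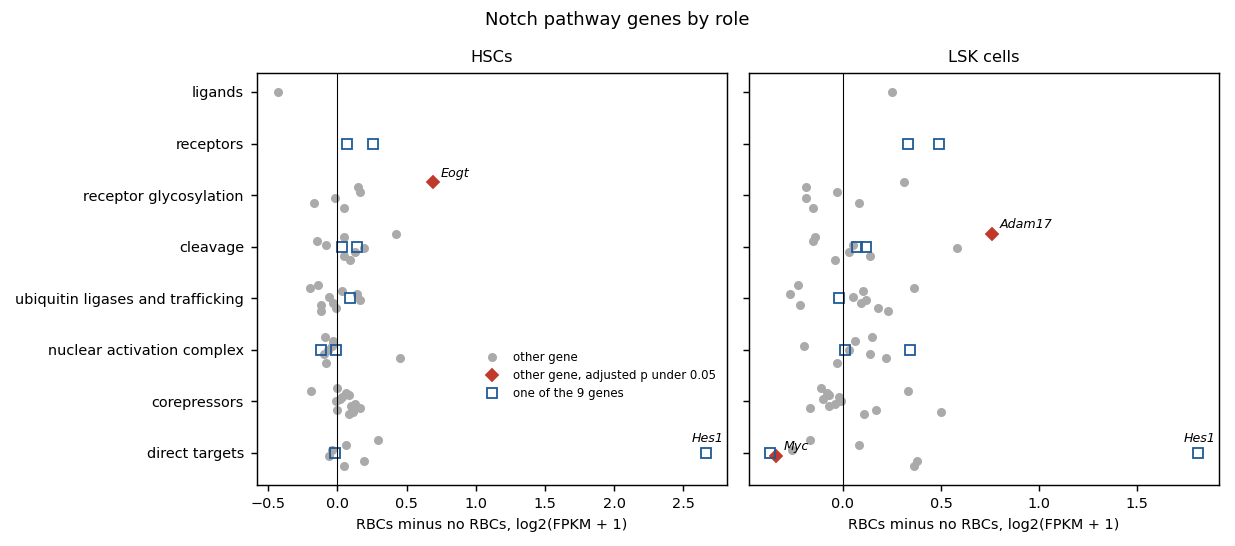
Difference in log2(FPKM + 1) with RBCs (horizontal axes) for the tested Notch pathway genes, in rows by role, in HSCs (left) and LSK cells (right). Blue squares are the 9 genes, grey points the 51 others and red diamonds those others with an adjusted p under 0.05. Hes1 lies far to the right of all others, at 2.66 and 1.81, and the 51 others span -0.43 to 0.69 in HSCs and -0.34 to 0.76 in LSK cells.

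The promoters of Nrarp and Hes5 are shown because both are direct targets whose values differ from those of Hes1, and that of Rbpj because it is the one of the 9 genes, among the 7 found, whose windows hold the letters TGGGAA, the core of the RBPJ binding motif. Hes1 and Dtx4 had no window among the promoters used, so theirs were not searched. Each is the 250 bases before an annotated start (RefSeq, GRCm38.p6, plus strand), with TGGGAA, or TTCCCA where the motif reads on the other strand, in capitals, and in Nrarp the E-box CACGTG, which several basic helix-loop-helix proteins bind.
Nrarp, chr2:25180508-25180757: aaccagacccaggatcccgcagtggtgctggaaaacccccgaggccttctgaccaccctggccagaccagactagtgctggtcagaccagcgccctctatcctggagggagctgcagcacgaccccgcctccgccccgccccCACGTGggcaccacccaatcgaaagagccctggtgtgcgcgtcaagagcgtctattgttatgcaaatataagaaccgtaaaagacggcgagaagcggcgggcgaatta
Hes5, chr4:154960673-154960922: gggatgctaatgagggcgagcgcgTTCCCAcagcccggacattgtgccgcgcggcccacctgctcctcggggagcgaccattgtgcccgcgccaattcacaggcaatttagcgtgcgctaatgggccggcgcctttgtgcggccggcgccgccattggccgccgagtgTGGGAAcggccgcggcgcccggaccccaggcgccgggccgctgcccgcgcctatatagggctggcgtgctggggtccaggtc
Rbpj, chr5:53590096-53590345: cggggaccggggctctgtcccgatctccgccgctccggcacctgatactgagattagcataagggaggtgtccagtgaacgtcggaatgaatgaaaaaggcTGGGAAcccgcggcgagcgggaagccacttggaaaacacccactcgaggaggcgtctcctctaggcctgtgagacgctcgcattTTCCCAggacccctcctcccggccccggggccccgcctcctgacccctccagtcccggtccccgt
In Hes5 the first bases of the 2 matches lie 226 and 82 bases before the start, and both extend to GTGGGAA, a longer form that contains TGGGAA. In Rbpj they lie 149 and 65 bases before the start. Nrarp holds no TGGGAA in this window and has CACGTG 108 bases before the start. CACGTG is not particular to Nrarp: the Adam10 window holds it too, as do windows of Lfng, Psen2, Tle3 and Tle4. On either strand, TGGGAA occurs in 21.6% of the 32851 promoter windows of this length, GTGGGAA in 5.42% and CACGTG in 6.02%. The 57 of the 74 listed pathway genes that were found among the promoters have 74 windows, of which 17 hold TGGGAA. A match describes the letters and shows no binding.

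Bhlhe40, a repressor of the related Hairy and Enhancer-of-split branch, rose in both populations. It was at 51.2 and 49.9 FPKM in HSCs alone and 123 and 116 FPKM with RBCs, and at 37 and 43.7 FPKM in LSK cells alone and 94.1 and 80.5 FPKM with RBCs (limma adjusted p = 0.0004 and 0.00069), and both calls held under all 15 alternatives. With RBCs it was lower in LSK cells than in HSCs, by a log2 value of -0.45 (adjusted p = 0.012, and up to 0.095 without 1 library). Its level was well above that of Hes1 in every library, while the ratio to its own control was smaller. Hes6, a relative that counteracts Hes1, was higher in LSK cells than in HSCs by 0.43 (adjusted p = 0.0051) without and 0.62 (adjusted p = 0.00054) with RBCs, at 71.1 to 77.3 FPKM against 46.1 to 56.5. Hes2, Hes3 and Hes7 had at most 3 reads in any group of 2 libraries.

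Of 10 genes described as repressed by Hes1, 5 were tested and 0 passed with RBCs in either population (limma; 2 in HSCs and 1 in LSK cells at an unadjusted p under 0.05, where 13.7% and 18.6% of all genes were). Cdkn1c, which encodes the cell cycle inhibitor p57, was at 9.99 and 9.39 FPKM in HSCs alone and 6.75 and 6.59 FPKM with RBCs, a log2 difference of -0.48 (SE 0.134, adjusted p = 0.12). In LSK cells Cdkn1c was at 3.69 and 3.67 FPKM alone and 2.74 and 3.23 FPKM with RBCs. Between the populations it was lower in LSK cells, with values of -1.19 (adjusted p = 0.00061) and -0.95 (adjusted p = 0.0013). Cebpa, a factor of myeloid commitment, was at 1.64 and 0.679 FPKM in HSCs alone and 1.72 and 2.3 FPKM with RBCs. In LSK cells Cebpa was at 8.78 and 8.65 FPKM alone and 13.6 and 13.9 FPKM with RBCs. Its log2 differences with RBCs were 0.51 in HSCs (SE 0.211, adjusted p = 0.32) and 0.60 in LSK cells (SE 0.211, adjusted p = 0.17), opposite in direction to those of Cdkn1c. Cebpa was higher in LSK cells than in HSCs by 2.2 (adjusted p = 0.00024) without and 2.3 (adjusted p = 0.00013) with RBCs. Neutrophil marker sums were also higher in LSK cells than in HSCs within each culture condition. They were 128.2 to 218.7 FPKM against 8.542 to 10.56 without RBCs, and 362.2 to 565.2 against 46.25 to 251.7 with RBCs. Across conditions the sums did not follow Cebpa. The highest HSC sum with RBCs (251.7) lay above both LSK sums without RBCs, where Cebpa was higher (8.78 and 8.65 FPKM against 1.72 and 2.3). The part of neutrophils in the Cebpa values was not tested.

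**Figure D4:**
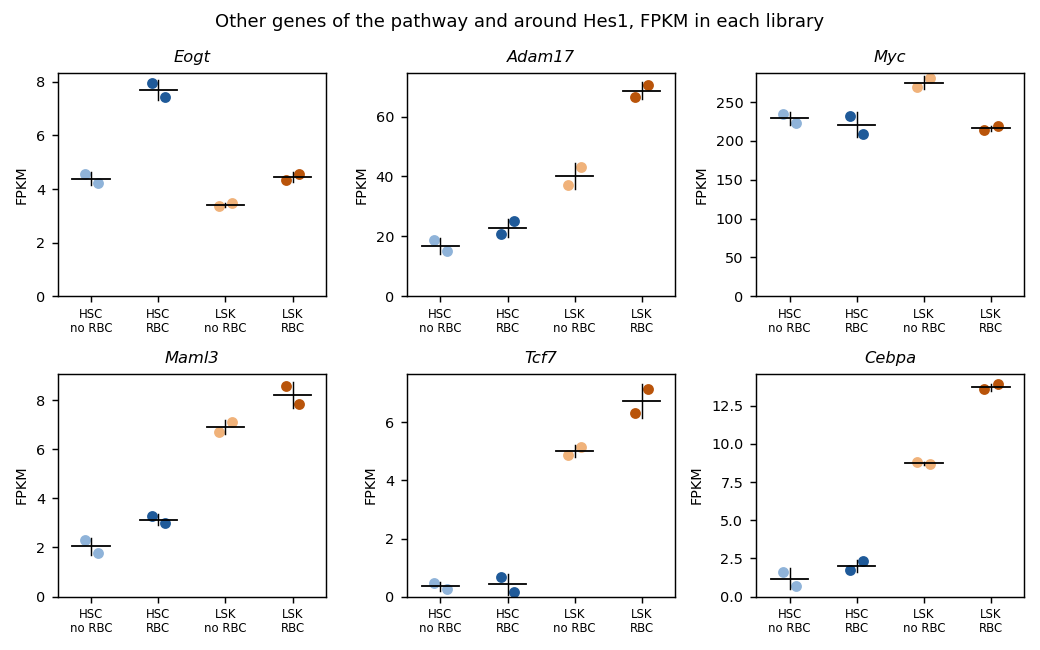
FPKM (vertical axes, starting at 0) of Eogt, Adam17, Myc, Maml3, Tcf7 and Cebpa in the 4 groups, with single libraries as points, means of 2 libraries as horizontal lines and 1 SD as vertical lines. Adam17 reaches 66.6 and 70.7 FPKM in LSK cells with RBCs, and Tcf7 stays under 1 FPKM in all 4 HSC libraries.

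A level at least 2-fold higher with RBCs and a limma adjusted p under 0.05 were found in HSCs for 0.633% of the 12003 genes tested and for 1 of the 9 genes, Hes1, and in LSK cells for 0.9% and again for Hes1 alone. Since the genes were chosen with these values known, nothing is read from that count. Without a fold limit, 1.57% of all genes tested were higher and 0.958% lower in HSCs with RBCs, and of the 51 other pathway genes tested 1 rose (Eogt) and 0 fell. In LSK cells 2.32% of all genes were higher and 1.13% lower, and of the 51 others 1 rose (Adam17) and 1 fell (Myc). These shares are near the background. In each population both cocultured libraries lay above both others for 5 of the 9 genes and below them for 1. Over all genes tested, 19.9% lay above and 21.8% below in HSCs, and 24.2% above and 26.4% below in LSK cells. The median log2 difference of the 9 genes with RBCs was 0.07 for HSCs and 0.12 for LSK cells, and that of the 51 others was 0.03 in both, against -0.00617 and -0.00953 over all genes tested.

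LSK cells against HSCs use the same libraries as the comparisons above. Without RBCs, 3 of the 9 genes lay higher in both LSK libraries and 1 lower (28% and 26.9% of all genes tested), and with RBCs 6 lay higher and 3 lower (33.7% and 33.1%). Of the 51 others, 5 were higher and 2 lower by adjusted p without RBCs, where 6.93% and 7.29% of all genes passed, and 7 were higher and 6 lower with RBCs, where 11.9% and 12.5% passed. A difference between the RBC effects in the 2 populations was found for 0 of the 51 others (limma interaction term), where 0.133% of all genes passed, and 4 were at an unadjusted p under 0.05, where 12.5% of all genes were. Of the 64 others with a value in the files, 13 were below the level for a test, among them 4 ligands, Notch3, Notch4, Hey1, Hey2 and Heyl.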

How the data were processed

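Per the labels and the methods of the study, full-length cDNA (SMART-Seq HT, NexteraXT, strand not kept) was sequenced, and the submitters' processing notes name mm10, TopHat2 2.1.1, Bowtie2 2.2.8, SAMtools 0.1.18 and Cuffdiff 2.2.1. The annotation is not given in the sources used here. The authors deposited 1 FPKM value per gene symbol and library. Groups came from the sample titles.

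limma 3.58.1 (R 4.3.3) was fitted to log2(FPKM + 1) of all 8 libraries, as 4 group means with a mean-variance trend and no replicate block, over the 12003 genes that reached an FPKM of 1 in 2 or more libraries. p-values were adjusted by Benjamini-Hochberg over all of them. An exact test of 2 libraries against 2 cannot go below 0.333. The 9 genes and all gene lists were chosen with earlier results of these data known. Named are the 9 genes, all ligands, every listed gene past an adjusted p of 0.05, the 2 most abundant genes of a list without one, and the 5 genes most like and most opposite to Hes1. Mfng, Psenen, Hes5, Hey1, Hey2, Heyl, Hes2, Hes3 and Hes7 were added after their values were seen. A few items that this rule names are not reported here.

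Numbers of reads are multiples of a gene's smallest FPKM step, found for 80.8% of 5365 low genes (all 8 libraries within 0.02 reads of a whole number) and, within 0.05 reads, for 75 listed genes, and are lower bounds. Positions are those of GENCODE M21 (GRCm38). The fit was tested on simulated data. Alternatives changed the pseudocount, filter, scaling, trend, block and libraries.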

Additional observations from a re-analysis of the deposited data

Results flagged for a closer look

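Maml1 lay lower with RBCs in both HSC libraries (1.27 and 1.14 FPKM against 1.48 and 1.31) and higher in both LSK libraries (2.38 and 1.95 FPKM against 1.42 and 1.57), a log2 difference between the effects of -0.46, HSCs minus LSK cells. The difference was not tested, since Maml1 was chosen with its values known. The same arrangement, with no overlap and opposite directions, was met by 936 of the 12003 genes tested (7.8%). Jag2, Cir1 and Ctbp1 also showed it, and for them the interaction term did not pass (limma adjusted p = 0.35, 0.29 and 0.57).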

How the results depend on the processing

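Hes1 was higher with RBCs under all 15 alternatives: by 3.09 in HSCs and 2.1 in LSK cells with a pseudocount of 0.1, and by 2.49 to 2.84 and 1.56 to 2.05 when 1 library was left out. No value changed sign past the test. Over all genes, with an adjusted p under 0.05 and at least a 2-fold difference, calls with RBCs numbered 93 in HSCs (66 to 95 without 1 library) and 121 in LSK cells (64 to 119, with 64, 72 and 74 without the first LSK library with RBCs, the first without and the second with them). With all genes above 0 tested they numbered 50 and 70. By the same rule LSK cells against HSCs gave 319 calls without RBCs (316 to 327 without 1 library) and 485 with a pseudocount of 0.1, and 433 with RBCs (406 to 452). The effects differed between populations, again by both criteria, for 13 genes (7 to 14 without 1 library), for 2 with all genes above 0, 20 with quantile normalization, 8 with the replicate block and 1 with no trend.

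Of the pathway genes other than the 9, counted with no fold limit, 1 was past an adjusted p of 0.05 in HSCs with RBCs (0 to 1 without 1 library), and 0 with all genes above 0, with the replicate block or with only the 4 libraries compared. In LSK cells 2 were (0 to 2), 1 with all genes above 0, quantile normalization or the block, and 0 with no trend. LSK cells against HSCs gave 7 without RBCs (3 to 7, and 4 with only the libraries compared) and 13 with RBCs (5 to 16). Of 34 calls on listed genes other than the 9, 16 held under all 15 alternatives. The causes of the lost calls were not tested.

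The labels do not say whether the shared replicate numbers pair the libraries. The correlation of replicate differences between groups was -0.067 to 0.0954, and such values from single libraries cannot show that libraries of the same number were unrelated. The SE of a gene comes from an estimate of the spread shared by the 4 groups of 2 libraries. Genes under the FPKM filter were tested with all genes above 0 and not otherwise. For Jag1, Notch4 and Hey1, the omission of each library from the ratio of reads was added after the data were seen.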
